A study of Homo sapiens with 8 samples.

Results

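The transcriptome of EA.hy926 control cells was described from 2 of the 8 RNA sequencing libraries of the study, chosen by their label as the control group. EA.hy926 is an immortalized line made by fusing human umbilical vein endothelial cells (HUVEC) with cells of A549, a lung carcinoma line. The other 6 libraries came from clonal lines of EA.hy926 in which CRISPR/Cas9 had removed the enhancer E2 (ΔE2, 3 libraries) or the enhancer SE12313-b (ΔSE12313-b, 3 libraries). All cells were grown in high-glucose DMEM with fetal bovine serum, and none of the labels gives a further treatment. For the control group the labels give the genotype as control, and they do not say whether its 2 libraries came from separate cultures, so that the spread between them may be technical. The study describes control cells transfected with guide RNAs for its proliferation assay, and does not say whether the RNA came from such cells. Since each clone grew from a single cell and the control is not stated to have done so, deletion and cloning cannot be told apart when the control is compared with the clones. Of the 27945 genes of the table, 11705 were present in the control, which here means an FPKM of at least 1 in both libraries. FPKM is the number of reads per kilobase of transcript, scaled to the reads of the library, and levels of different genes are compared only in this unit.

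Endothelial cells line blood vessels. They hold together through VE-cadherin (CDH5) and PECAM1, and receive growth signals through the VEGF and angiopoietin receptors. They keep blood fluid through thrombomodulin and tissue factor pathway inhibitor, and they store von Willebrand factor, which acts in clotting. Epithelial cells are joined by E-cadherin (CDH1), claudins and desmosomes, and their cytoskeleton is built of keratins, of which KRT8 and KRT18 pair in simple epithelia. Alveolar type II cells of the lung, the cell type A549 is often used to model, produce surfactant proteins under the control of NKX2-1. A fusion line carries chromosomes of both parents, and which genes of each parent are transcribed can be read only from its RNA.

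The control libraries held 12696174 and 12067557 reads, of which 64.2% and 64.6% fell on the transcripts kept, and each clone library held 13616467 to 19101153 reads with 70.0% to 78.4% on these transcripts. A transcript of 1000 bases with 3 reads, the floor used here, would have an FPKM of 0.236 in control replicate 1 and 0.249 in control replicate 2. Floors cover counting error only. The control libraries were almost alike. Across the 11705 genes present in both, log2(FPKM + 0.1) had a Pearson correlation of 0.991, the median absolute difference was 0.08 on the log2 scale, and 105 genes were 2-fold or more apart. Genes are not independent replicates, so this is a description of the libraries only. The chi-square per degree of freedom of the reads was 1.21 over 11701 genes with at least 50 reads, against 4.21 to 24.6 between libraries of a deletion group. By this measure the controls differed by more than counting noise, but by less than any pair of libraries of a deletion group did. By genes 2-fold apart, ΔE2 replicates 1 and 3 were as close as the controls, with 102, and the other pairs had 123 to 312. Among genes with at least 50 reads in both controls together, the 5 that differed most were LINC02228 (23 and 52 reads), INHBE (52 and 20), LINC02001 (18 and 37), MYL5 (18 and 35) and LOC102606465 (35 and 16). In bulk RNA a low level in all cells and a high level in a few cells cannot be told apart.

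Of 19475 protein-coding genes listed, 10529 (54.1%) were present in the control, 300 were abundant, with an FPKM of at least 100 in both libraries, and 6924 (35.6%) were at the floor, with 3 reads or fewer in each. No read was found in either library for 5368 of them. The median of the present protein-coding genes was 8.31 FPKM. A mean of 1 to 10 FPKM was found for 6118 protein-coding genes, 10 to 100 for 4227, 100 to 1000 for 291 and more than 1000 for 13. Of the 6867 genes for non-coding RNA (leaving out snoRNAs), 668 (9.73%) were present, as were 268 of 1019 pseudogenes and 223 of 523 genes for small nucleolar RNA. A short transcript reaches 1 FPKM on few reads. Of all 11705 present genes, 128 had 3 reads or fewer in each control library, among them 80 of the 668 and 36 of the 223. The 10 genes with most reads took 9.98% and 9.89% of the reads on the transcripts kept, and the first 1000 took 53.1% of them in each library.

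EEF1A1, the elongation factor that brings tRNAs to the ribosome, was the most abundant protein-coding RNA, with 3174 and 3214 FPKM. Of the first 20 protein-coding genes 14 encode ribosomal proteins, among them RPLP1 (1716 and 1725 FPKM), RPS19 (1588 and 1474) and RPS2 (1504 and 1528). Reads shared with the many ribosomal pseudogenes make these values uncertain. The remaining members of the first 20 were FTL, the light chain of ferritin (1904 and 1888 FPKM), MMP1, the interstitial collagenase (1517 and 1548), VIM, the intermediate filament vimentin (1013 and 1038), EEF2, the translocase of the ribosome (1030.25 and 1016), and GAPDH of glycolysis (971.9 in each). MMP1 thus stood among the ribosomal proteins near the top of the list. Among non-coding genes of at least 200 bases, the highest were RN7SL3 of the signal recognition particle (25793 and 24898 FPKM), RPPH1 of ribonuclease P (18015 and 17583) and RMRP of ribonuclease MRP (16628 and 15747). Next came MALAT1, a nuclear RNA that is not translated, with 2588 and 2619 FPKM, or 3.34% and 3.36% of all reads on the transcripts kept. The other 6 were RPL13AP5, SNORA73B, SCARNA2, ZFAS1, LRRC75A-AS1 and RPL21P28, from 352 to 1382 FPKM by mean. RPL13AP5 and RPL21P28 are listed as pseudogenes but lie within the spans of RPL13A and RPL21. Their reads can therefore be those of these protein-coding genes, counted again. By mean FPKM, 76 of the 100 most abundant protein-coding genes of the control were also among the first 100 of the clones.

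**Figure D1:**
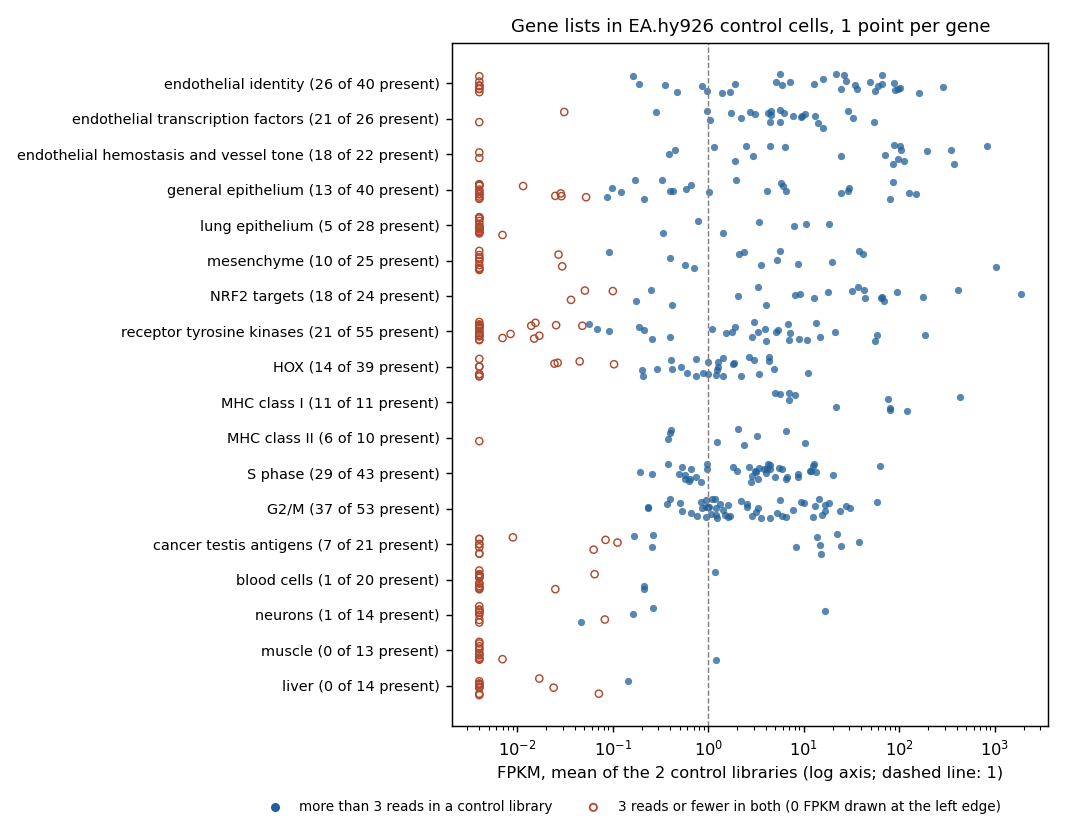
Levels of 18 gene lists in EA.hy926 control cells. Each point is 1 gene at its mean FPKM in the 2 control libraries (log axis), filled where a control library had more than 3 reads and open where neither had. Most endothelial genes lie to the right of the dashed line at 1 FPKM, and most genes of lung epithelium, blood, neurons, muscle and liver lie at the left edge.

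Of 40 genes of endothelial identity, 26 were present and 8 had no read, while of all protein-coding genes 54.1% were present. CD93, a C-type lectin of the endothelial surface, was the highest, with 288 and 281 FPKM. ENG, the TGF-beta co-receptor endoglin, had 163 and 162 FPKM. CDH5, the adherens junction protein of endothelium (chromosome 16, 66400510 to 66438689, GRCh37), had 102 and 103 FPKM, from 5369 and 5125 reads, rank 296 of all protein-coding genes. THBD, thrombomodulin, had 96.7 and 95.4 FPKM. EGFL7, a secreted endothelial protein, had 91.0 and 89.9 FPKM, and its transcript contains the precursor of MIR126. PROCR, the receptor of protein C, lay level with EGFL7, at 86.6 and 91.0 FPKM. Other classical markers were lower. PECAM1 (chromosome 17, 62396777 to 62407083) had 5.93 and 6.03 FPKM. VWF (chromosome 12, 6058040 to 6233841) had 2.02 and 1.83 FPKM, from 225 and 194 reads. VWF, MMRN1 (1.75 and 1.64 FPKM) and PLVAP, the diaphragm protein of fenestrae (1.30 and 1.48), were the lowest of the present members. The line thus held much VE-cadherin RNA and little von Willebrand factor RNA.

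The receptors of vessel growth were unequal. TIE1 had 55.3 and 56.8 FPKM and its relative TEK, the receptor of angiopoietins, 6.87 and 7.38. FLT1, which binds VEGFA, had 4.78 and 5.37 FPKM on a short transcript of 1897 bases. KDR, the main signalling receptor for VEGFA, was below the level called present, with 0.204 and 0.171 FPKM from 15 and 12 reads. KDR is named for this value and falls outside the naming rule. No read was found in either control library for FLT4, the receptor of lymphatic endothelium, CLDN5, the endothelial claudin, SELE, the adhesion molecule of inflamed endothelium, APLNR, STAB2, RAMP2, BMX and CA4. For CLDN5, a transcript of 2311 bases, this allows up to 0.102 and 0.108 FPKM, and for FLT4 up to 0.0544 and 0.0572.

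Of 26 transcription factors of endothelium 21 were present, all below 60 FPKM. The highest were ELK3 (51.8 and 55.9 FPKM), a member of the ETS family, NR2F2 (31.5 and 34.6), which specifies veins, EPAS1 (28.7 and 29.8), the hypoxia-inducible factor 2 alpha, KLF2 (16.1 in each), which is induced by flow, and ETS1 (13.8 and 14.6). The lowest present members were FOXC1 (2.29 and 3.17 FPKM), SOX18 (2.45 and 1.90) and MEF2C (1.86 and 1.60). TAL1, a factor shared with blood cells, had no read, and HEY2, which marks arteries, had 0 and 2 reads.

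Of 22 genes of hemostasis and vessel tone, 18 were present and 7 were abundant, the largest number of any list. TFPI, which blocks tissue factor, had 374 and 371 FPKM on a transcript of 1152 bases, and 251 FPKM in control replicate 1 on its transcript with most reads. ANXA2, which binds plasminogen and its activator on the cell surface, had 337 and 351 FPKM. ECE1, the enzyme that activates endothelin, had 198 and 195 FPKM and PLAT, the tissue plasminogen activator, 112 and 109. Endothelin itself was much lower. EDN1 had 1.17 and 1.15 FPKM, ADM 2.54 and 2.41, and PTGS2 and PTGIS, enzymes on the way to prostacyclin, had no read.

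The promoters of 4 genes are shown because endothelial and epithelial genes at opposite levels can be set side by side. The genes were chosen after their values were seen, from those with 1 start in RefSeq. Each sequence is the 150 bases before the start of the gene on GRCh38.p14, taken from RefSeq, 5′ to 3′ on the strand of the gene, with each CG dinucleotide in capitals. TIE1 (chr1:43300832-43300981, plus strand) and KDR (chr4:55125596-55125745, minus strand) are endothelial receptors, and CLDN1 (chr3:190322447-190322596, minus strand) and DSP (chr6:7541521-7541670, plus strand) encode a claudin and desmoplakin.
TIE1: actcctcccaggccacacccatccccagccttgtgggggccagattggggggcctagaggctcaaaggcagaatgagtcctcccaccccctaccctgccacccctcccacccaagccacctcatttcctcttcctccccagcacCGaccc
KDR: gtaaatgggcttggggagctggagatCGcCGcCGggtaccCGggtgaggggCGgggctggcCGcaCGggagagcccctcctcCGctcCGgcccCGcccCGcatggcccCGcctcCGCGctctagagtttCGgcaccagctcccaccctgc
CLDN1: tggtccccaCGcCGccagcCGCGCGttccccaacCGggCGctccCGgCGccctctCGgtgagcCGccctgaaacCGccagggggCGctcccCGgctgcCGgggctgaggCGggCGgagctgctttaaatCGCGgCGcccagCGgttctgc
DSP: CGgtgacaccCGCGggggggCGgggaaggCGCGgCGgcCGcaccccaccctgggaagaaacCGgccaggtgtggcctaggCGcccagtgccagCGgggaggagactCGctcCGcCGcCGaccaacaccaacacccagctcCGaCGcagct
TIE1, with 55.3 and 56.8 FPKM, had 1 CG in this window, and KDR, at 0.204 and 0.171 FPKM, had 15. CLDN1, with 5.60 and 5.84 FPKM, had 21, and DSP, with no read, had 17. The median of all 35116 promoters of the table was 7, and 89.1% of them held at least 1 CG, a motif that reads the same on both strands. In these 4 genes the number of CG did not order the levels. Methylation was not measured.

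Of 40 genes of epithelia in general, 13 were present and 17 were at the floor. The present ones were led by the keratins of simple epithelia. KRT18 (chromosome 12, 53342655 to 53346685) had 152 and 144 FPKM, from 2725 and 2459 reads, above CDH5. KRT7 had 124 and 129 FPKM, and KRT8, the partner of KRT18, 86.0 and 87.3. LAMB3, a chain of laminin 332, had 82.5 and 78.9 FPKM and ITGB4, its integrin receptor in hemidesmosomes, 29.8 and 30.3. PKP3 (4.32 and 3.98 FPKM) and MUC1 (1.78 and 2.08) were among the lowest of the present members. Adhesion genes were divided. JUP, plakoglobin, had 28.04 and 29.5 FPKM and TJP1, a tight junction scaffold, 24.4 and 24.6. No read was found for CDH1 (E-cadherin), KRT19, CLDN3, or the desmosomal genes DSP, DSG2 and DSC2, and CDH3 and CLDN7 had 1 read in control replicate 2 only. For CDH1 the floor is 0.0512 and 0.0538 FPKM. EPCAM, likewise named for its values, had 12 and 5 reads, or 0.554 and 0.243 FPKM.

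The families show the same selection. Of 50 keratin genes 7 were present and 34 had no read, and after KRT18, KRT7 and KRT8 came KRT15 (21.3 and 20.5 FPKM) and KRT80 (14.4 and 13.4). Of 24 claudins 4 were present, CLDN11 (22.4 and 23.02 FPKM), CLDN12 (16.6 and 15.8), CLDN1 (5.60 and 5.84) and CLDN15 (6.23 and 5.11), and the fifth, CLDN4, had 10 and 5 reads. Of 23 cadherins 6 were present. CDH5 exceeded CDH2, the neural cadherin (19.4 and 19.9 FPKM), and CDH12 (5.09 and 5.24), CDH24 (2.51 and 2.93) and CDH18 (1.11 and 1.17) followed.

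Lung epithelium was represented least of the tissues of origin. Of 28 genes 5 were present and 21 were at the floor. ETV5 had 18.8 and 18.005 FPKM and LPCAT1, an enzyme that makes surfactant lipid, 10.6 in each. ABCA3, the lipid transporter of lamellar bodies, had 7.99 and 7.79 FPKM, AGER, a marker of alveolar type I cells, 3.07 and 3.75, and HOPX 1.52 and 1.31. ETV5 and LPCAT1 are also expressed outside the lung. Many other genes that mark alveolar type II cells had no read, among them SFTPA1, SFTPA2, SFTPB, SFTPC, SFTPD, LAMP3, SLC34A2 and NKX2-1. For NKX2-1 the floor is 0.109 and 0.114 FPKM. NAPSA, the surfactant protease, had 0.715 and 0.860 FPKM from 14 and 16 reads.

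**Figure D2:**
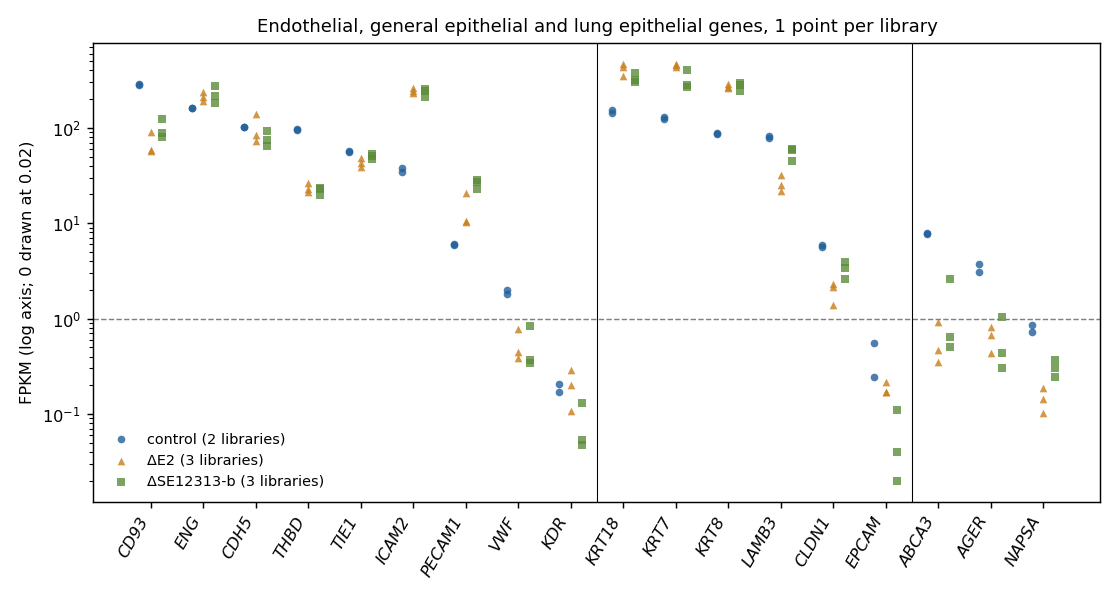
FPKM (log axis) of endothelial genes (left), general epithelial genes (middle) and genes of lung epithelium (right) in each of the 8 libraries, 1 point per library. The 2 control libraries lie almost on each other, CDH5 and KRT18 are closer in level in the controls (102 and 152 FPKM in replicate 1) than in the clones, and KDR and EPCAM lie below the dashed line at 1 FPKM.

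Markers of other cell types were mostly at the floor. Of 20 genes of blood cells 17 were, among them PTPRC, CD3D, CD3E, CD4, CD8A and MS4A1 at 0 reads and CD79A at 1 read in each library, and 1 was present, HBG1, with 9 and 8 reads, a gene nearly identical to its neighbour. Of 14 liver genes 13 were at the floor, and the other, FGA, had 4 reads in each library. Of 13 muscle genes 12 were, and TNNI3 had 8 and 16 reads. Of 14 neuronal genes 10 were at the floor and TUBB3, a tubulin that many cultured lines express, had 17.1 and 15.9 FPKM. Of 25 mesenchymal genes 10 were present. VIM was followed by MMP2 (42.1 and 41.2 FPKM), SPARC (37.0 and 39.1), CDH2 and ZEB1 (8.74 and 8.80), a repressor of CDH1. The collagens of fibroblasts were at the floor, with 3 and 1 reads for COL1A1, 2 in each library for COL3A1 and none for COL1A2, as were CDH11, SNAI2, TWIST1, CNN1 and PDGFRA at 0 reads. FN1 had 2.46 and 2.28 FPKM on a short transcript of 2368 bases, S100A4 1.86 and 2.29, and SNAI1 4.12 and 3.02, the lowest present members.

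Genes tied to the tumor parent were read next. A549 is known to lack CDKN2A and CDKN2B, the cell cycle inhibitors of 9p21, and in the control CDKN2A, CDKN2B and the antisense RNA CDKN2B-AS1 had no read. The floor of CDKN2A (chromosome 9, 21967751 to 21975132, 1249 bases) is 0.189 and 0.199 FPKM. Its neighbours were read at low levels, MTAP with 0.658 and 0.928 FPKM from 41 and 55 reads, KLHL9 with 5.50 and 5.19, DMRTA1 with 2.71 and 2.78, ELAVL2 with 0.689 and 1.04, and IFNE with 4 and 6 reads. Hybrid lines of this kind are commonly selected for nucleotide salvage. HPRT1, which salvages purines, had 20.9 and 21.8 FPKM and APRT 52.3 and 49.2. TK2, the mitochondrial thymidine kinase, had 9.93 and 9.45 FPKM, above TK1, the cytosolic one, with 0.894 and 1.05 from 18 and 20 reads.

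The targets of NRF2, a regulator of the oxidative stress response that is active in A549, were mostly present, 18 of 24. FTL was followed by the ferritin heavy chain FTH1 (412 and 417 FPKM), TXNRD1, thioredoxin reductase (174 and 178), TKT (94.1 and 93.6) and TALDO1 (67.1 and 70.4), both of the pentose phosphate pathway. The aldo-keto reductases that A549 is known for were low. AKR1C3 had 1.43 and 2.66 FPKM, AKR1C1 0.345 and 0.485 and AKR1B10 0.348 and 0.157, and reads can be shared among the near-identical AKR1C genes. OSGIN1 (3.38 and 3.30) and GCLM (4.30 and 3.81) were the other low members that were present, and ALDH1A1, ALDH3A1 and GPX2 were at the floor with 1 to 3 reads in a library.

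Of 55 receptor tyrosine kinases 21 were present and 26 at the floor. AXL, a receptor of GAS6, was by far the highest with 187 and 188 FPKM. It was followed by EPHA2 (58.7 and 56.9 FPKM), TIE1, MET, the receptor of hepatocyte growth factor (21.4 and 21.1), and EPHB4 (15.1 and 14.46), which marks veins. TYRO3 (1.85 and 1.97 FPKM), DDR1 (1.71 and 1.87) and NTRK2 (1.56 and 1.53) were the lowest present. ALK, EPHA1, EPHA3, EPHA6, EPHA8, EPHA10, EPHB1 and EPHB3 were among those at the floor. Of 39 HOX genes 14 were present, all below 12 FPKM, with HOXB7 (10.2 and 11.9), HOXA9 (4.83 and 5.01), HOXD8 (4.86 and 3.88), HOXC6 (3.52 and 5.09) and HOXC4 (2.99 and 3.74) highest and HOXB5 (1.21 and 1.64) and HOXA5 (1.38 and 1.10) among the lowest. The posterior genes HOXA13, HOXC11 and HOXC12 had no read, and HOXB13 and HOXD10 had 1 in each library.

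All 11 genes of the class I pathway of antigen presentation were present. B2M, the light chain, had 435 and 434 FPKM, HLA-C 82.2 and 77.1, HLA-B 78.8 and 80.7, and HLA-E 73.4 and 79.6, while HLA-G (6.83 and 7.03), HLA-F (5.30 and 5.84) and NLRC5 (4.79 and 5.09), the activator of class I genes, were lowest. Of 10 class II genes 6 were present at low levels, HLA-DRA with 10.4 and 10.3 FPKM, HLA-DRB1 with 7.76 and 5.37, HLA-DMA with 3.45 and 3.04, CD74 with 2.503 and 2.19, HLA-DPA1 with 2.35 and 1.73, and CIITA, their activator, with 1.31 and 1.18. HLA-DPB1, HLA-DQB1 and HLA-DMB had 5 to 23 reads a library, and HLA-DQA1 none. Alleles that differ from the reference can lose reads, so levels of HLA genes are uncertain.

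Of 21 cancer testis antigens, genes that are silent in most adult tissues, 7 were present. MAGEB2 had 37.8 and 37.7 FPKM, MAGEA6 24.2 and 24.7, MAGEA3 22.6 and 22.4, PRAME 15.3 and 14.0, and MAGEA12 15.2 and 15.1, followed by MAGEA1 (15.0 and 12.7) and MAGEC2 (8.47 and 7.999). MAGEA3, MAGEA6 and MAGEA12 are near-identical, and their shares of reads are uncertain. MAGEA10, XAGE1A, XAGE1B, PAGE5 and CTAG1B had no read and MAGEC1, PAGE1 and PAGE2 had 1 read in 1 library. Of 10 genes of germ line and pluripotency, LIN28B alone was present (4.25 and 4.07 FPKM), and POU5F1, SOX2, LIN28A, DPPA4, DAZL, DDX4, SYCP3 and TEX11 had no read and NANOG 1 read in control replicate 1.

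The cell cycle lists were read at every gene but at low levels. Of 43 S phase genes 29 were present, led by PCNA, the sliding clamp (62.7 and 63.8 FPKM), NASP (20.9 and 20.04), SLBP (14.2 and 12.4), TYMS (13.0 and 12.3) and USP1 (12.1 and 12.6), and with CHAF1B (2.47 and 2.82), CLSPN (1.97 and 2.05) and CDCA7 (1.72 and 1.88) lowest. One of the 54 names of the G2/M list could not be matched without doubt. Of the other 53 genes 37 were present, led by TUBB4B (61.4 and 56.0 FPKM), HMGB2 (32.6 and 28.9), RANGAP1 (27.4 and 27.3), CKAP5 (23.5 and 24.8) and CBX5 (18.1 and 18.8), most of which are not confined to dividing cells. The median of all 53 was 1.71 FPKM. CENPF (1.06 and 1.32), DLGAP5 (1.11 and 1.23) and NUF2 (1.03 and 1.09), proteins of the spindle and kinetochore, were just above 1.

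To place the baseline in the series, the control was compared with the mean of both deletion groups by limma on log2(FPKM + 0.1), with all 8 libraries in one model, two-sided. Called genes are those 2-fold or more apart whose p, adjusted by the method of Benjamini and Hochberg, was below 0.05. Of 13789 genes tested, 1101 (7.98%) were higher in the control and 1656 (12.0%) lower. The median log2 difference, control minus clones, was -0.21 over all genes tested, so the balance of directions depends on the scaling. With each library centred on its median log2 ratio to the mean library, 1512 genes were higher and 1117 lower. The share of reads on the transcripts kept was lower in the control, as given above. MALAT1 took 3.34% and 3.36% of these reads against 0.161% to 0.618% in the clones. Their part in the differences was not tested. Standard errors below are those of the limma model, and adjusted p values are from it after Benjamini-Hochberg adjustment over all genes tested. The model takes the control libraries as separate samples. Since the spread between them may be technical, these standard errors and p values may be too small.

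**Figure D3:**
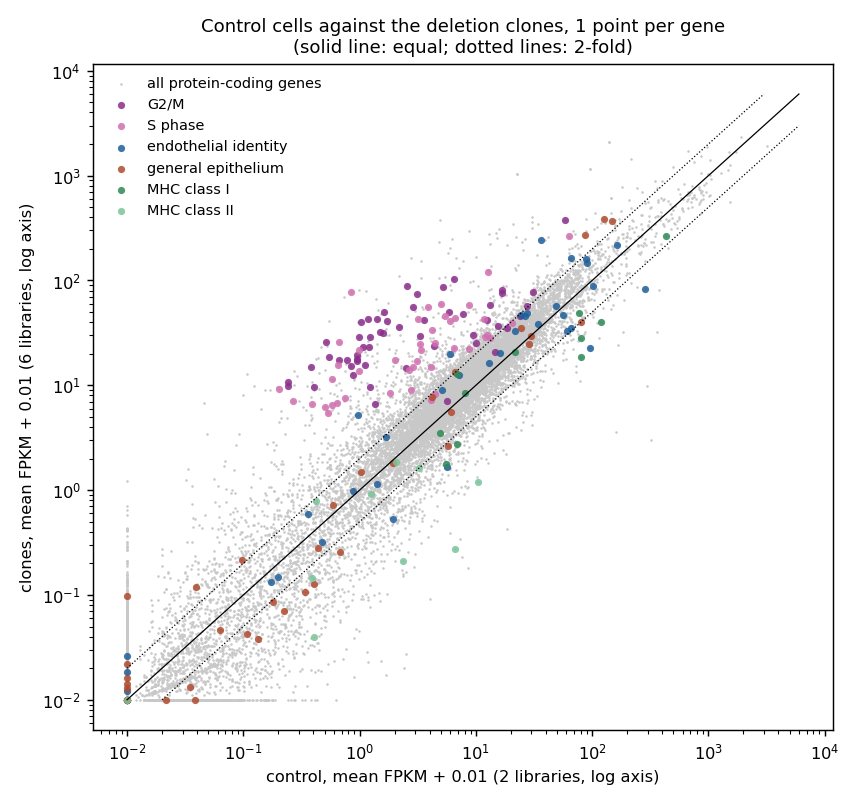
Mean FPKM of each protein-coding gene in the control (horizontal, 2 libraries) and in the clones (vertical, 6 libraries), both with 0.01 added and on log axes. The genes of S phase and G2/M lie above the upper 2-fold line almost without exception, the class II genes called lie below the lower one, and endothelial and epithelial genes lie on both sides.

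The cell cycle lists differed most from the background of 7.98% higher and 12.0% lower. Of the 43 S phase genes tested, 40 were lower in the control and the other 3 were not called, with a median log2 difference of -2.87. Of the 53 G2/M genes 49 were lower and the other 4 were not called, with a median of -4.01. These counts were 39 and 48 after centring. In its own assays the study measured slower proliferation in both kinds of clones than in control cells, and a smaller share of cells in S phase. How these RNA levels relate to growth was not tested. RRM2, the inducible subunit of ribonucleotide reductase, had 1.07 and 0.611 FPKM in the control and 62.1 to 98.3 in the clones, a log2 difference of -6.40 (SE 0.22, adjusted p = 3.52e-07 by limma). MKI67, the antigen of dividing cells, had 0.574 and 0.429 FPKM against 16.4 to 32.9 (log2 difference -5.40, SE 0.20). GINS2 (log2 difference -5.08) and EXO1 (-5.05) of the S phase list and PIMREG (-5.26) and BIRC5 (-5.16) of the G2/M list lay below every clone as well. TK1 of the salvage list had 71.6 to 91.5 FPKM in the clones, a log2 difference of -6.23. The 5 present genes with the largest deficit over all were histone genes, HIST1H3B (4.19 and 5.64 FPKM against 283 to 429), HIST1H2AH, HIST1H3C, HIST1H3G and HIST2H3A, with log2 differences from -6.23 to -5.49, and near-identical copies make the share of each uncertain.

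The 5 present genes furthest above the clones were TXNIP, MIR21, MMP10, IL1B and TNC. TXNIP, an inhibitor of thioredoxin that is induced by glucose, had 317 and 319 FPKM in the control and 1.28 to 6.21 in the clones, a log2 difference of 6.89 (SE 0.53, adjusted p = 2.39e-05 by limma). IL1B, the cytokine interleukin-1 beta, had 158 and 163 FPKM against 2.76 to 4.99 (log2 difference 5.48, SE 0.20). MMP10, stromelysin-2, had 18.7 and 18.3 FPKM against 0.0600 to 1.55 (5.66), and TNC, the matrix protein tenascin-C, 8.32 and 8.84 against 0.0290 to 0.403 (5.19). The precursor of MIR21 had 29.95 and 18.7 FPKM from few reads on a short transcript, and its adjusted p, 0.0129 by limma, rose to 0.0801 when the controls were averaged into 1 sample. MMP1 had 305 to 841 FPKM in the clones, below both controls (log2 difference 1.52, SE 0.34, adjusted p = 0.00535 by limma). MALAT1 had 152 to 532 FPKM in the clones (log2 difference 3.32), ZFAS1 104 to 155 (1.89) and SCARNA2 226 to 368 (1.04).

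Of 30 genes of endothelial identity tested, 4 were higher in the control, 4 were lower and 22 were not called, where 7.98% of all genes were higher and 12.0% lower, with a median log2 difference of -0.22, close to that of all genes. THBD had 19.6 to 26.2 FPKM in the clones, a log2 difference of 2.08 (SE 0.10, adjusted p = 1.67e-06 by limma). CD93 had 56.7 to 125 FPKM in the clones (log2 difference 1.83, SE 0.22) and VWF 0.346 to 0.831 (1.76, SE 0.36, adjusted p = 0.00341 by limma), all 6 clones below both controls. In the opposite direction, ICAM2, an adhesion molecule of resting endothelium, had 37.8 and 34.5 FPKM in the control and 210.5 to 263 in the clones (log2 difference -2.74, SE 0.09). CD34 (0.967 and 0.954 FPKM against 1.48 to 11.7, log2 difference -1.99) and PECAM1 (10.2 to 28.2 in the clones, -1.61, SE 0.26) were also lower than every clone. CDH5 was not called. Its clones, 64.3 to 141 FPKM, lay on both sides of the control, with a log2 difference of 0.27 (SE 0.24, adjusted p = 0.364 by limma).

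Of 24 transcription factors of endothelium tested, 1 was higher and 6 were lower, and after centring 2 were higher and 3 lower. The shares over all genes tested were 7.98% higher and 12.0% lower before centring. GATA2 had 4.20 and 4.85 FPKM in the control and 8.58 to 18.96 in the clones (log2 difference -1.48, SE 0.09), HHEX 9.80 and 10.6 against 19.02 to 36.0 (-1.36) and LYL1 5.92 and 6.42 against 10.9 to 22.4 (-1.23). HEY1, a target of Notch, had 3.14 and 2.97 FPKM against 0.344 to 2.06 (1.58, adjusted p = 0.00957 by limma, and 0.0665 with the controls averaged). Of 20 genes of hemostasis and vessel tone, 4 were higher and 4 lower. TFPI had 55.5 to 135 FPKM in the clones (log2 difference 2.25, SE 0.24), TFPI2 2.62 and 3.31 FPKM in the control against 0.0920 to 0.392 (3.24). PROCR was not called (-0.82) and PROS1, protein S, was not called either (0.56). EDN1, with 11.2 to 31.1 FPKM in the clones, had a log2 difference of -3.86 (SE 0.16), S100A10, the partner of ANXA2, one of -1.57 (70.9 and 71.7 FPKM against 184 to 223), and ADM one of -1.39.

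Of 15 genes of epithelia in general tested, 3 were higher and 4 lower, where 7.98% of all genes were higher and 12.0% lower. The keratins of simple epithelia were lower in the control than in any clone. KRT8 had 242 to 295 FPKM in the clones (log2 difference -1.65, SE 0.08), KRT7 270.5 to 472 (-1.58, SE 0.14) and KRT18 299 to 467 (-1.31, SE 0.13, adjusted p = 7.37e-05 by limma). TJP3 (log2 difference 1.21), CLDN1 (1.17) and LAMB3 (1.10) were higher. The adjusted p of TJP3, 0.0262 by limma, became 0.107 with the controls averaged, and against ΔSE12313-b alone none of the 3 was called (log2 differences of 0.93 for TJP3, 0.80 for CLDN1 and 0.58 for LAMB3). In the families, KRT79 (1.84 and 1.57 FPKM against 0.153 to 0.460, log2 difference 2.48), KRT15 (1.02) and CDH7 (1.54) were higher and CLDN11 (34.7 to 93.3 FPKM in the clones, -1.34) lower, and CDH7 was not called with the controls averaged (adjusted p = 0.0665 by limma).

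Of 7 genes of lung epithelium tested, 3 were higher in the control and 4 were not called, a count that is a description only, since a gene could enter the test through the control alone. ABCA3 had 0.350 to 2.60 FPKM in the clones (log2 difference 3.28, SE 0.56, adjusted p = 0.00147 by limma), AGER 0.303 to 1.03 (2.38, SE 0.39) and NAPSA 0.102 to 0.367 (1.504, SE 0.32). In all 3 genes the 6 clones lay below both controls. The other 21 genes of the list were not tested, since they were under the minimum of 0.5 FPKM in at least 2 libraries.

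Antigen presentation was in part higher in the control. Over all genes tested, 7.98% were higher and 12.0% lower, against which the counts of this paragraph are to be read. Of 11 class I genes 5 were higher, HLA-B (11.97 to 37.4 FPKM in the clones, log2 difference 2.22, SE 0.35) and HLA-F (1.71) among them, and the other 6 were not called. TAP2, of the peptide transporter, was not called but lay below every clone (-0.87). Of 7 class II genes tested 4 were higher and the other 3 were not called, HLA-DPB1 with a log2 difference of -0.76. HLA-DRB1 and CD74 each reached 0.5 FPKM in 1 clone library only and entered the test through the control. The class II count is therefore a description only. HLA-DRB1 had 0.124 to 0.625 FPKM in the clones (log2 difference 4.30, SE 0.39), CD74 at most 0.638 (3.31, SE 0.49) and HLA-DRA 0.452 to 2.07 (3.17, SE 0.36), each below both controls in all 6 clones. Of 20 NRF2 targets 7 were lower and 1 was higher. AKR1C3 (7.42 to 15.8 FPKM in the clones, log2 difference -2.51), AKR1B10 (-1.56) and GCLM (-1.48) were the lowest, and SLC7A11, the cystine transporter, had 36.2 and 37.7 FPKM in the control against 7.66 to 18.2 (1.48, SE 0.26). Of 24 receptor tyrosine kinases 5 were lower, foremost TYRO3 (-1.33), ROR1 (-1.28) and EPHB4 (29.5 to 45.1 FPKM in the clones, -1.28), and 1 was higher. After centring 3 of the 5 were still called.

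Other lists held few calls. ACTA2, smooth muscle actin, was higher in the control (6.27 and 4.91 FPKM against 0.313 to 1.61, log2 difference 2.66), and FN1 (-1.62) and S100A4 (-1.31) were lower, S100A4 with an adjusted p of 0.0213 by limma that became 0.107 with the controls averaged. HOXB9 (1.02 and 0.953 FPKM against at most 0.381, log2 difference 2.46) and HOXD4 (1.06) were higher, HOXD4 with an adjusted p of 0.0458 by limma. MAGEC2 had up to 7.55 FPKM in the clones, and none in ΔSE12313-b replicate 3 (log2 difference 3.67, but 1.42 and not called against ΔE2 alone), and MAGEA1 44.8 to 55.2 (-1.83). DMRTA1 (6.12 to 9.96 FPKM in the clones, -1.44) and TUBB3 (57.2 to 90.0, -2.14) were lower, and HBG1 (1.08) was higher on 9 and 8 reads, with an adjusted p of 0.0243 by limma that became 0.114 with the controls averaged. Of the genes nearest to the deletions, ADAMTS18 (chromosome 16, 77316025 to 77469011) had 0.682 and 0.859 FPKM in the control, from 51 and 61 reads, and 0.0870 to 0.232 in the clones (log2 difference 1.84, SE 0.365, adjusted p = 0.00311 by limma), and NUDT7 (77756389 to 77776157) had 5.12 and 4.08 FPKM against 4.18 to 6.06 (-0.18, SE 0.16, adjusted p = 0.376 by limma).

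Some of these calls rested on the treatment of low values or on few libraries. With a pseudocount of 1 the log2 difference fell short of the call for VWF (0.95), NAPSA (0.55), CLDN1 (0.93), AKR1B10 (-0.61), HOXB9 (0.82) and ADAMTS18 (0.63). Without either of the control libraries HEY1, MIR21, TJP3, S100A4, HOXD4, HBG1 and CDH7 were not called, with log2 differences of 1.55 and 1.62 for HEY1, 5.32 and 6.001 for MIR21, 1.07 and 1.35 for TJP3, -1.17 and -1.455 for S100A4, 0.91 and 1.21 for HOXD4, 1.03 and 1.12 for HBG1, and 1.60 and 1.49 for CDH7. KRT15 was not called without control replicate 1 (0.99) or without 1 of several clones (0.96 to 0.9989). After quantile normalization KRT18 (-0.87), CLDN11 (-0.97), EPHB4 (-0.93), LYL1 (-0.98), TJP3 (1.003), HOXD4 (0.83) and HBG1 (0.99) were not called. Against ΔE2 alone CLDN11 (-0.77), LYL1 (-0.91), TYRO3 (-0.94), KRT15 (0.74), S100A4 (-1.14), HOXD4 (1.11) and MAGEC2 were not, and against ΔSE12313-b alone SCARNA2 (0.88), HEY1 (1.01), HBG1 (0.69) and HOXD4 (1.01) were not. TFPI2, TJP3, NAPSA, HOXB9, KRT79, CDH7, TNC and ADAMTS18 were under 0.5 FPKM in all clones, and HOXD4, HLA-DRB1, CD74 and MMP10 in all clones but 1, so these genes were tested only through the control, where they are high. AKR1B10, EXO1 and PIMREG were tested only through the clones, as was MKI67, which reached 0.5 FPKM in 1 control library.

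**Figure D4:**
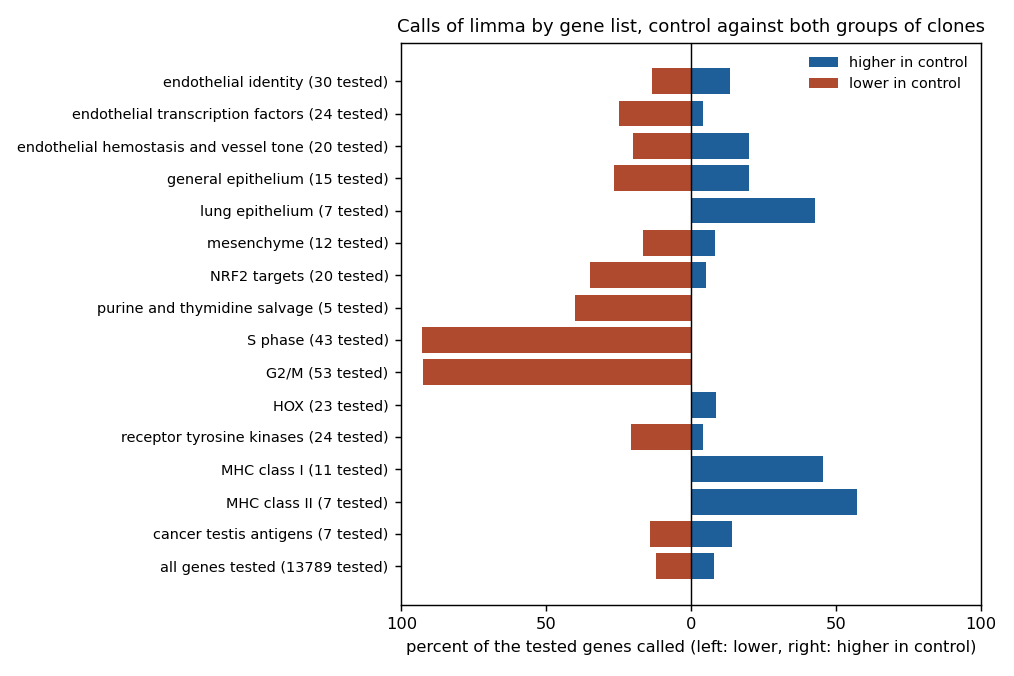
Percent of the tested genes of each list that were called higher (right) or lower (left) in the control than in the clones by limma. S phase and G2/M stand out to the left and the last bar holds all 13789 genes tested.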

How the data were processed

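Ribosome-depleted total RNA was sequenced from 8 EA.hy926 libraries on a NextSeq 550. The authors trimmed reads with Trim Galore 0.4.4, mapped them to GRCh37 (hg19) with STAR 2.5.4b and deposited FPKM for 65572 RefSeq transcripts. The program and strand handling behind this table are not given in the sources used here (the processing notes name featureCounts), so overlapping genes on either strand may share reads. The transcripts of 42 lines carry no gene symbol, hold under 0.08% of the reads and were left out. Each symbol was represented by 1 transcript, that with the largest mean FPKM across the series. FPKM times length fell on whole multiples of 1 step for 100% of values checked (tolerance 0.1 read), which gave the reads. Groups and replicate numbers came from the labels.

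Genes that reached 0.5 FPKM in 2 or more libraries entered limma 3.58.1 in R 4.3.3 (trend, two-sided, pseudocount 0.1). Fold changes on that scale understate those of low genes. The deposited unit being FPKM, the test the authors used, that of edgeR, was not run. The limma step alone was tested on simulated counts. These had the same spread in all libraries, which the real groups do not have. Members and the 21 lists, of which 521 of 522 names matched, were chosen with earlier results of these data known. Named genes follow a rule: the markers VWF, CDH5, PECAM1 and KRT18, the 20 protein-coding and 10 non-coding genes highest in the control, the 5 highest, 3 lowest present and up to 8 floor members of a list (all members of lists of up to 10), the 5 highest keratins, claudins and cadherins, the 3 largest called differences per list and direction, the 5 largest over all present genes whose groups do not overlap, the 5 genes of at least 50 reads with the largest gap between controls, ADAMTS18 and NUDT7. TEK, FLT1, KDR, EPCAM, AKR1C1, FGA, TNNI3 and TUBB3 fall in part outside it and were chosen after their values were seen. Some genes the rule names are not reported here. Alternatives were pseudocounts, filters, scalings, transcript choice, a replicate block, voom on the recovered reads scaled by median ratios, thresholds and leaving out each library. Averaged controls, each deletion alone and FPKM rescaled to a common sum were chosen after seeing the data.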

Additional observations from a re-analysis of the deposited data

How the results depend on the processing

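The 11705 genes present in both controls were 11990 to 12034 when only 1 of the control libraries was used, and no other setting moved that number by over 1.5 times. The number of genes higher in the control, 1101, moved to 575 with a pseudocount of 1, to 698 among genes averaging 1 FPKM or more and to 1823 with a 1.5-fold threshold, which raised the number lower, 1656, to 3533. Leaving out 1 library gave 843 to 1150 genes higher and 1591 to 1695 lower. With the controls averaged as 1 sample, 830 were higher and 1561 lower, and with voom on the recovered reads, 1653 and 1087. The split between directions turned with the scaling: 39.9% of calls were higher as deposited, against 57.5% with each library centred, 51.1% after quantile normalization, 60.3% with voom and 52.1% with FPKM rescaled to a common sum. With the replicate block the numbers were 1032 and 1602. Same-numbered libraries did not deviate together (correlations of -0.08 to 0.11), so the numbers are not taken to pair the samples. Of 1835 values of 77 named genes under the alternatives, 1759 kept direction and call, and NUDT7 changed sign, to 0.047 with centring, 0.030 after quantile normalization and 0.067 with voom, none of them called. The cause was not tested. A level under about 0.24 FPKM in a transcript of 1000 bases could not be told from the floor, and with 2 control libraries that differ by little more than counting noise the spread of control cultures is not known.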

Other observations

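Present genes were found on each autosome and on chromosome X. The share of protein-coding genes that was present ran from 43.5% on chromosome X and 47.6% on chromosome 4 to 60.03% on chromosome 14 and 64.0% on chromosome 16, the chromosome of CDH5 and of the enhancers deleted in the clones. The median level of the present genes was highest on chromosome 20, with 13.4 FPKM over 305 genes, and lowest on chromosome 13, with 5.24 FPKM over 171 genes. The number of copies of a chromosome was not measured.

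Ribosomal protein genes, 82 of 84 of which were present, took 5.89% of the reads on the transcripts kept in each control library. In the clones they took 4.28% to 5.16%.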
